A study of Danio rerio with 48 samples.

Results

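The genes described here make, carry, activate, inactivate or sense thyroid hormone. The 10 symbols were taken by name, whatever their values, but with earlier results of these data known. Of these 10, 8 were listed among the 25445 genes of the count table. They were tg, slc5a5, ttr, dio1, dio2, dio3b, thraa and thrb. The other members, dio3a and tpo, were not listed under those names and were not analysed here.

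Thyroid hormone is made in the thyroid follicle from iodide and the protein thyroglobulin, travels in blood bound to carrier proteins, and acts through nuclear receptors. Tissues set their own exposure with deiodinases, which either convert the prohormone thyroxine to the active form or inactivate both. In fish larvae the hormone is supplied by the yolk before the thyroid takes over, and it is known to act on the developing eye, brain and skeleton.

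RNA was read from pooled zebrafish heads, cut in front of the swim bladder, 15 heads to a pool. The larvae were a mixed wild-type line and were exposed from the first day to potassium perfluorohexane-1-sulfonate (PFHxS), a perfluorinated surfactant, at 7.87, 14 or 25.1 µM. Every group, controls included, carried 0.4% DMSO as vehicle, and heads were taken at 4 or 5 days post fertilization (dpf). This gave 8 groups of 6 pools, 48 libraries in all. Whether the pools came from separate clutches is not given, so p-values measure the spread between pools, which may be partly technical.

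Total counts per library ran from 16.6 M to 39.2 M (median 22.9 M). Levels are given as CPM, counts per 1000000 reads of the scaled library, with scaling factors from edgeR's TMM method, and they are compared between groups for 1 gene at a time, since gene lengths were not used. The heads carried markers of organs that lie behind the head. Summed over 18 liver markers the level was 172 to 1350 CPM in the 4 dpf DMSO libraries and 2250 to 4460 CPM in those of 5 dpf, and none of the 18 was at 0 throughout either group. Of the 24 libraries at 5 dpf, 4 had a mean log2 CPM below 0 over 12 exocrine pancreas markers: 14 µM A and D, and 7.87 µM C and D. In 3 libraries (7.87 µM H at 4 dpf, 7.87 µM F and I at 5 dpf) under 15% of all counts fell on the 10 most abundant genes. Where leaving either set out ends a call or changes the direction of a value given singly, the value without it is printed beside the result.

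Age came first as a comparison, because it moved these genes most. Between 4 and 5 dpf in DMSO, 5 of the 8 members rose and none fell (edgeR quasi-likelihood test, adjusted p under 0.05). Over all 20723 genes tested, 41.9% passed in this comparison and 21.7% rose. The 5 were ttr, dio3b, dio1, tg and thrb, while slc5a5, dio2 and thraa did not pass. The libraries of the 2 ages did not overlap for 3 members, ttr, dio3b and dio1, against 14% of all genes that were higher without overlap.

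**Figure D1:**
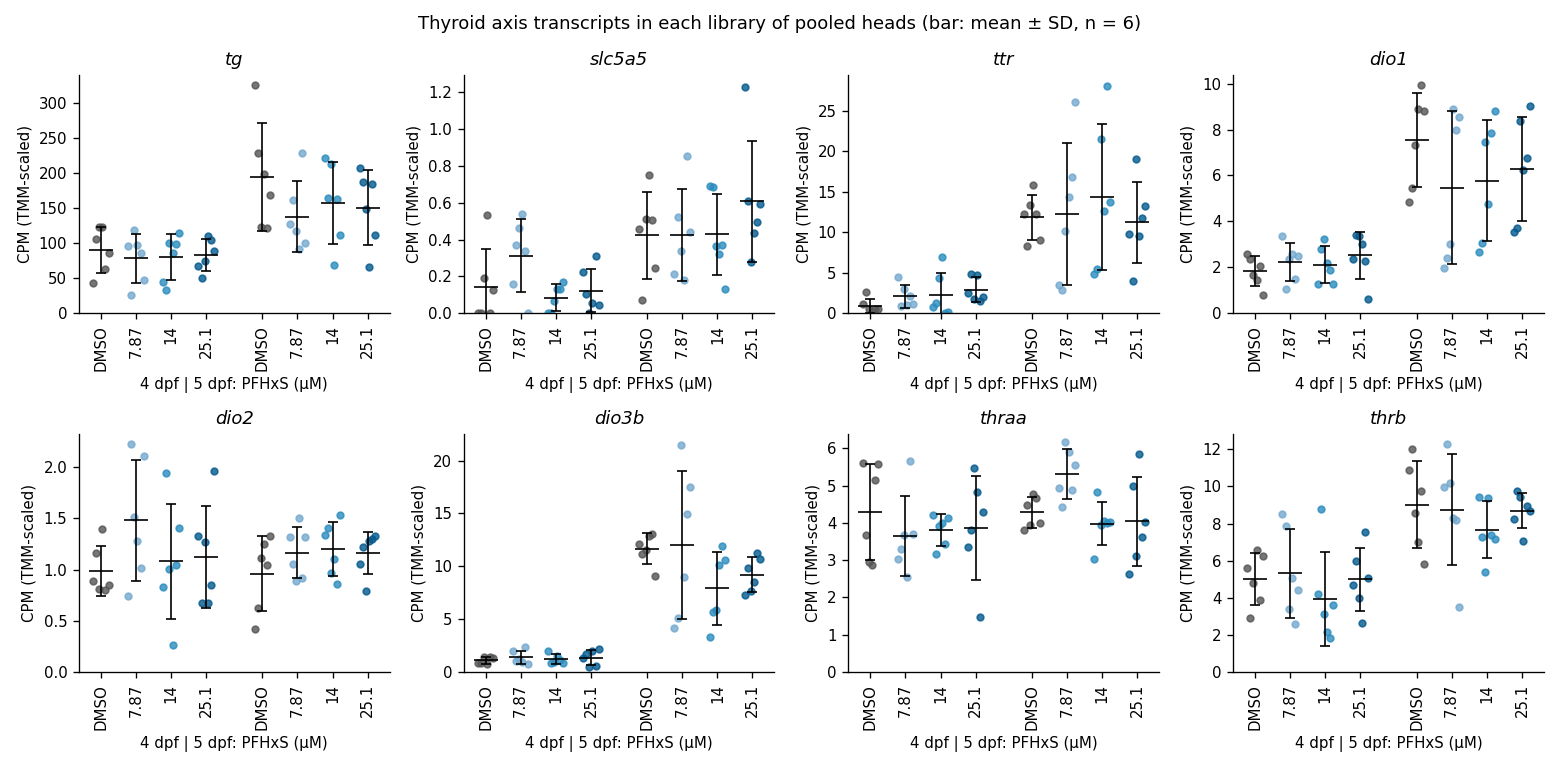
Level of each of the 8 genes (vertical axis, TMM-scaled CPM, from 0) in every library, by PFHxS concentration at 4 dpf (left 4 groups of a panel) and 5 dpf (right 4 groups). Points are libraries and bars the mean ± SD of 6. The 5 dpf DMSO libraries of dio3b (9.08 to 13.1 CPM) lie far above those of 4 dpf (0.731 to 1.43 CPM), while those of dio2 and thraa share a range.

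Of the synthesis genes, tg encodes thyroglobulin, the protein on which the hormone is built (GRCz11, chromosome 16, 31530762 to 31598772, minus strand). It lay between 43 and 123 CPM in DMSO at 4 dpf, with a median of 95.9, and between 121 and 325 CPM at 5 dpf, with a median of 183. All but 1 of the 5 dpf libraries were above every 4 dpf library. The mean rose from 90.5 ± 32.7 to 194 ± 76.8 CPM (SD, n = 6), a log2 fold change of 1.10 ± 0.33 (SE, edgeR adjusted p = 0.00608). A gene named SLA (1 of many) overlaps tg on the other strand, and whether counting used strand is not given, so reads of the pair may be mixed.

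The sodium iodide symporter gene slc5a5, which brings iodide into the follicle cell (chromosome 8, 13364950 to 13382352, plus strand), was counted at most 35 times in a library, and 7 of the 48 libraries had none. No 4 dpf library held over 9 counts, so the gene passed the low-count filter through its 5 dpf libraries. In DMSO the 4 dpf libraries held 0 to 0.532 CPM (median 0.0638) and those of 5 dpf held 0.0689 to 0.749 CPM (median 0.48). The groups overlapped, with 1 of the 6 older libraries above all younger ones. The log2 fold change of 1.60 ± 0.69 missed the threshold in edgeR (adjusted p = 0.0579). It passed with DESeq2 on the same libraries (1.64, adjusted p = 0.0323). In edgeR it passed without 4 dpf DMSO G, the highest young library, at 2.55 (adjusted p = 0.00672), and without 5 dpf DMSO E, at 1.82 (adjusted p = 0.0342).

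Transthyretin, the product of ttr, carries thyroid hormone in blood and is made mainly by the liver (chromosome 20, 6142433 to 6157943, plus strand). Its DMSO libraries lay between 0.133 and 2.59 CPM at 4 dpf (median 0.561) and between 8.33 and 15.8 CPM at 5 dpf (median 12.2). Every older library was above every younger one. The log2 fold change was 3.75 ± 0.66 (edgeR adjusted p = 1.48e-05). Liver markers moved with it: 16 of 18 rose from 4 to 5 dpf, with a median log2 fold change of 3.08 over the list against 0.20 over all genes. So did markers of other organs behind the head: 12 of 12 of the exocrine pancreas (median 4.98) and 6 of 7 of the intestine (median 3.51), while 6 of 9 cartilage markers fell. In bulk heads, fewer cells of a type and less RNA per cell cannot be told apart, so the level of ttr per liver cell was not measured.

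Within each library, ttr was therefore also set against the mean of the 18 liver markers. This log2 ratio was -3.44 ± 0.79 in DMSO at 4 dpf and -2.78 ± 0.31 at 5 dpf (SD, n = 6), a difference of 0.65 (exact permutation test, two-sided, p = 0.0433, adjusted p = 0.13 over 21 ratio tests). The ranges of the 2 ages overlapped, from -4.96 to -2.74 and from -3.10 to -2.25. Measured this way the age difference in ttr did not pass the adjusted threshold, and it was far smaller than that of ttr alone.

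The deiodinases differed from each other. The product of dio1 can both activate and inactivate thyroid hormone and is known from liver and kidney (chromosome 8, 18039570 to 18042090, minus strand). It lay between 0.808 and 2.59 CPM in DMSO at 4 dpf (median 1.86) and between 4.86 and 9.92 CPM at 5 dpf (median 8.07), with no overlap. The log2 fold change was 2.05 ± 0.38 (edgeR adjusted p = 3.11e-05).

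The gene dio2 encodes the main activating enzyme, which makes the active hormone within tissues such as brain and pituitary (chromosome 17, 16873417 to 16876753, plus strand). It lay between 0.801 and 1.40 CPM at 4 dpf (median 0.867) and between 0.42 and 1.33 CPM at 5 dpf (median 1.07). Those ranges overlapped, and the log2 fold change was -0.02 ± 0.32 (edgeR adjusted p = 0.969). It was counted at most 60 times in a library.

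The inactivating deiodinase gene dio3b (chromosome 20, 53802521 to 53810639, plus strand, annotated in the table as a processed transcript) rose most clearly. It lay between 0.731 and 1.43 CPM in DMSO at 4 dpf (median 1.08) and between 9.08 and 13.1 CPM at 5 dpf (median 11.8). No older library came near the younger ones. The log2 fold change was 3.38 ± 0.36 (edgeR adjusted p = 5.36e-09).

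The ratio of dio2 to dio3b was taken within each library, where a scaling factor cancels but for its part in the prior count of 2. Its log2 value was -0.14 ± 0.66 at 4 dpf and -3.57 ± 0.66 at 5 dpf in DMSO (SD, n = 6), so that the ratio at 5 dpf was 0.0925 of that at 4 dpf. All 6 older libraries were below all younger ones. The exact permutation test, two-sided over 924 divisions of 12 libraries, gave p = 0.00216, the smallest it can give, and an adjusted p of 0.0455 over 21 tests. It was the single ratio test of the 21 that passed. The result restates the rise of dio3b given above, since dio2 did not pass between the ages. Because the smallest possible p adjusted to 0.0455, the ratio tests had little room to pass.

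**Figure D2:**
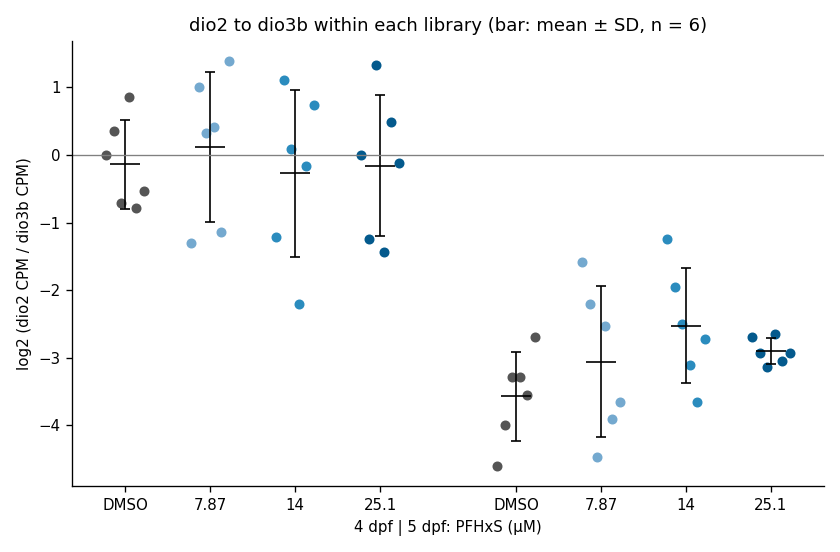
Log2 ratio of dio2 to dio3b CPM (vertical axis) in every library, by PFHxS concentration (µM) at 4 dpf (left) and 5 dpf (right). Points are libraries and bars the mean ± SD of 6. The DMSO mean is -0.14 at 4 dpf and -3.57 at 5 dpf, and the 14 µM libraries at 5 dpf reach from -3.65 to -1.24.

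Nuclear receptors sense the hormone in the cell. The receptor gene thraa (chromosome 3, 34688022 to 34753606, minus strand) lay between 2.86 and 5.6 CPM in DMSO at 4 dpf (median 4.41) and, a day later, between 3.81 and 4.77 CPM (median 4.24). The older range fell inside the younger one. The log2 fold change was -0.01 ± 0.22 (edgeR adjusted p = 0.979).

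The receptor gene thrb, whose product is needed for red-sensitive cones in zebrafish (chromosome 19, 17514631 to 17658254, minus strand), lay between 2.93 and 6.58 CPM at 4 dpf (median 5.19) and between 5.82 and 12 CPM at 5 dpf (median 9.15). All but 1 of the older libraries were above every younger one. It rose by a log2 fold change of 0.85 ± 0.29 (edgeR adjusted p = 0.0177). The call was lost without 4 dpf DMSO E (0.73, adjusted p = 0.051) and with limma on the quantile values (0.62, adjusted p = 0.0644 at a pseudocount of 1). The within-library log2 ratio of thraa to thrb differed by -0.80 between the ages (exact permutation p = 0.0303, adjusted p = 0.13).

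Scaling matters for these ages. The scaling factors of the younger libraries lay between 0.566 and 1.098, those of the older ones between 1.1 and 1.925. With total counts alone, the median log2 fold change of all genes in DMSO moved from 0.20 to 0.88, and thraa then passed at 0.65 (adjusted p = 0.0432) and slc5a5 at 2.30 (adjusted p = 0.00528), while dio2 stood at 0.68. The values of thraa and dio2 under that scaling lay below the shifted median.

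The same age comparison was made in exposed larvae, where 6 of the 8 members rose at each concentration. At 7.87 µM, 50.5% of all genes passed and 26.9% rose; at 14 µM, 40.9% and 22%; at 25.1 µM, 47% and 25.8%. The 5 members that rose in DMSO rose at each concentration too, joined by thraa at 7.87 µM and by slc5a5 at 14 and 25.1 µM. Since slc5a5 passed the low-count filter through 5 dpf libraries alone, its rises are not independent of that filter. Libraries of the 2 ages did not overlap for dio3b at any concentration, nor for dio1 at 25.1 µM. All genes higher without overlap were 4.88% at 7.87 µM, 6.09% at 14 µM and 13.4% at 25.1 µM.

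The rise of dio3b was 3.10 ± 0.36, 2.70 ± 0.36 and 2.73 ± 0.35 on the log2 scale at 7.87, 14 and 25.1 µM (edgeR adjusted p = 2.64e-09, 1.35e-07 and 5.95e-08). That of ttr was 2.55 ± 0.61, 2.69 ± 0.61 and 1.94 ± 0.59 in the same order (adjusted p = 0.000545, 0.000479 and 0.00643). That of dio1 was 1.32 ± 0.37, 1.46 ± 0.38 and 1.33 ± 0.37 (adjusted p = 0.00305, 0.00182 and 0.0032). These 3 genes kept their calls whichever 1 library was left out. With limma on the quantile values dio1 missed the threshold at 7.87 µM (0.75, adjusted p = 0.122) and at 14 µM (0.96, adjusted p = 0.0544).

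The other calls in exposed larvae were less firm. The rise of tg was 0.81 ± 0.33, 0.98 ± 0.33 and 0.86 ± 0.33 (edgeR adjusted p = 0.0344, 0.0145 and 0.0266), and it was lost in 4 of 12 leave-one-out fits at 7.87 µM and 5 of 12 at 25.1 µM. That of thrb was 0.71 ± 0.29, 0.97 ± 0.30 and 0.79 ± 0.29 (adjusted p = 0.0381, 0.00807 and 0.0233), lost in 7 of 12 at 7.87 µM and in 1 of 12 at 25.1 µM. That of thraa at 7.87 µM was 0.53 ± 0.22 (adjusted p = 0.0401), lost in 8 of 12.

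Limma on the quantile values (pseudocount 1) also ended the thrb call at 7.87 µM (0.51, adjusted p = 0.119) and at 25.1 µM (0.61, adjusted p = 0.0625) and the thraa call at 7.87 µM (0.25, adjusted p = 0.379). At 7.87 µM both were lost with a term for the last 16 columns of the table (edgeR, thrb 0.66, adjusted p = 0.0728, and thraa 0.50, adjusted p = 0.0707). Both were lost there too in a fit of the compared groups only (0.78, adjusted p = 0.0843, and 0.60, adjusted p = 0.0822). The last 16 columns stand apart in the column order. Sequencing pools are named in the labels without their libraries. The titles of these 16 libraries end in 16 different sample numbers, and the same numbers recur among the other columns. These columns may therefore be a pool, which the labels do not state. They hold 4 libraries of 4 dpf DMSO and 1 of 5 dpf DMSO, but 0 of 7.87 µM at 4 dpf and 3 at 5 dpf.

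Both calls of slc5a5, 2.18 ± 0.75 at 14 µM (edgeR adjusted p = 0.0173) and 2.18 ± 0.69 at 25.1 µM (adjusted p = 0.00896), were lost with limma on the quantile values. The calls of ttr, dio1 and dio3b held without the 4 libraries low in pancreas markers and without the 3 with few counts on the most abundant genes. Without the former, tg missed the threshold at 7.87 µM (0.78, adjusted p = 0.0801) and at 14 µM (0.80, adjusted p = 0.0827), as did slc5a5 at 14 µM (1.67, adjusted p = 0.11) and thrb at 7.87 µM (0.50, adjusted p = 0.213). Without the latter, thrb missed it at 7.87 µM as well (0.72, adjusted p = 0.0508). The libraries low in pancreas markers held the lowest ttr, dio1 and dio3b of their 5 dpf groups. Leaving them out therefore raised the rises of these genes, as for ttr at 7.87 µM from 2.55 to 3.00. It could not show whether those rises would weaken. Libraries of 4 dpf below 0 in the same markers, 14 µM H and I among them, were kept. Whether the age effect differed between DMSO and the 2 lower concentrations was not tested.

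**Figure D3:**
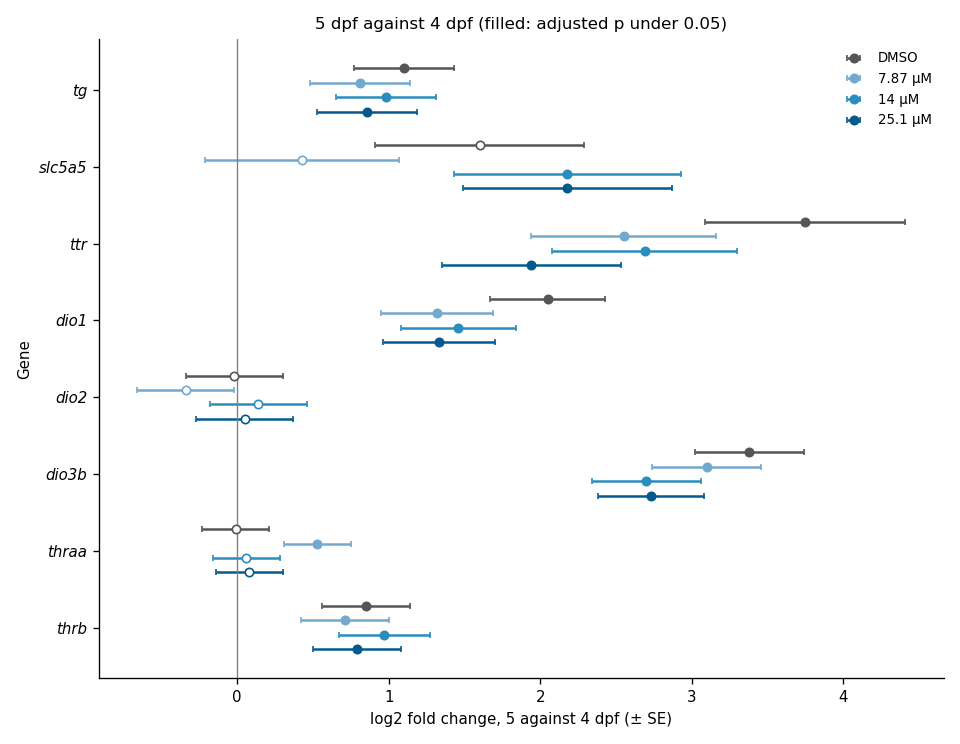
Log2 fold change of each gene between 5 and 4 dpf (horizontal axis, ± SE) in DMSO and at 3 PFHxS concentrations. Filled points have an adjusted p under 0.05. In DMSO ttr (3.75) and dio3b (3.38) stand farthest right, and dio2 (-0.02) and thraa (-0.01) lie at 0.

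In the 4 libraries of 5 dpf low in pancreas markers, ttr and dio1 were low as well. At 14 µM, ttr was 4.79 CPM in A and 5.46 CPM in D, against 12.6 to 28 CPM in the other 4 libraries. At 7.87 µM it was 3.48 CPM in C and 2.80 CPM in D, against 10.1 to 26.1 CPM in the others. These were the lowest values of their groups, as were those of dio1 at 2.67, 3.07, 1.95 and 2.4 CPM in 14 µM A, 14 µM D, 7.87 µM C and 7.87 µM D.

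The liver markers were lowest in the same libraries, at a mean log2 CPM of 4.82 and 4.99 (14 µM A and D) and of 3.92 and 4.06 (7.87 µM C and D). By contrast thrb stood at 9.44, 7.27, 9.98 and 12.3 CPM in these libraries, of which 2 were the highest of their groups. How far the cut behind the head differed between pools was not measured.

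Across the 24 libraries of an age, the relation of 3 members to marker lists was computed, 6 relations in all, chosen after the data were seen. For ttr and the mean of the liver markers, Pearson's r was 0.84 at 4 dpf (permutation p = 1e-05, the smallest it can give; Spearman's rho 0.80, p = 2e-05) and 0.87 at 5 dpf (p = 1e-05, rho 0.79, p = 2e-05). The adjusted p of r was 2.0e-05 at both ages, and r was 0.75 and 0.79 without the 2 libraries farthest out. For dio1, r was 0.50 at 4 dpf (permutation p = 0.0126, adjusted 0.0151, rho 0.63, p = 0.00124) and 0.93 at 5 dpf (p = 1e-05, adjusted 2.0e-05, rho 0.78, p = 1e-05), and 0.62 and 0.90 without the 2 farthest.

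For thrb and the mean of 10 photoreceptor markers, r was 0.76 at 4 dpf (permutation p = 3e-05, adjusted 4.5e-05, rho 0.74, p = 8e-05), and 0.75 without the 2 farthest libraries. At 5 dpf it was 0.39 (p = 0.0597, rho 0.16, p = 0.443), and 0.28 without them. The relation did not pass the threshold at 5 dpf. Between the ages in DMSO, where thrb rose, 4 of these 10 markers fell, 1 rose and 5 did not pass (edgeR). Their median log2 fold change was -0.29. The libraries of each age include all 4 treatments. For ttr, dio1 and thrb alike they were permuted without regard to treatment, so differences between treatments enter r and its p. Libraries also share depth and composition, which these p-values do not account for.

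**Figure D4:**
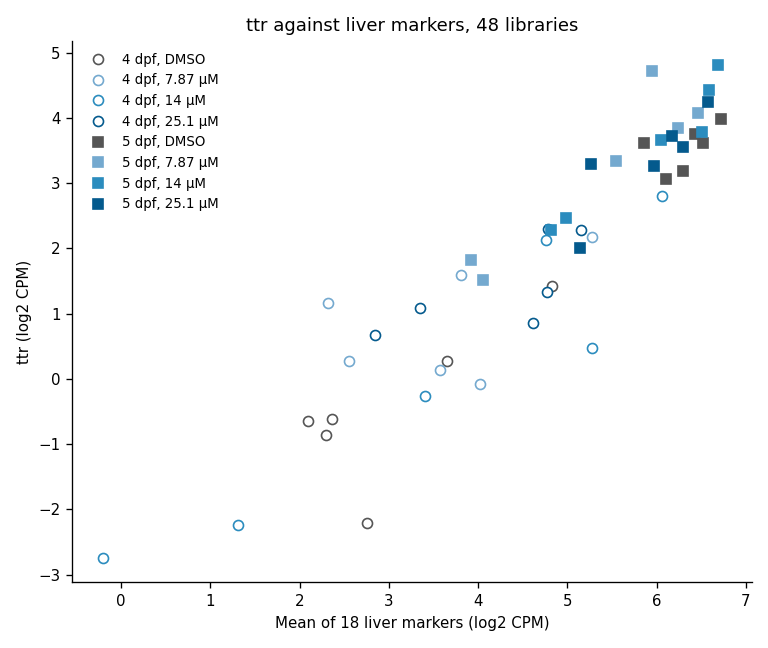
Log2 CPM of ttr (vertical axis) against the mean log2 CPM of 18 liver markers (horizontal axis) in all 48 libraries, open circles at 4 dpf and filled squares at 5 dpf, coloured by PFHxS concentration. Pearson's r is 0.84 within 4 dpf and 0.87 within 5 dpf.

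Genes whose levels followed a member across the 48 libraries, after the group mean was subtracted, were ranked by Pearson's r among 12515 others as a description. For ttr they were ambp (0.89), apoc2 (0.88) and fbp1b (0.88), of which ambp and apoc2 encode plasma proteins of liver origin. For tg they were tnc (0.93), col12a1a (0.92) and slit3 (0.91), which encode an extracellular matrix glycoprotein, a collagen chain and a guidance ligand. The symporter slc5a5 correlated with tg at 0.42. Its average log2 CPM was -1.25, below the limit of 0 set for this ranking, and 7 of the 48 libraries had no counts. Its log2 values therefore lay near the floor, and the 0.42 carries little weight.

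For thrb the closest genes were grk1b (0.87), a photoreceptor kinase, ube2kb (0.84) and syt5a (0.84). For dio1 they were gpx4a (0.82), dap (0.79) and eps8l3a (0.75), and for dio3b ablim1b (0.72), prkaa1 (0.68) and sdr16c5b (0.68). The highest values were lower for dio2 (stmn4l 0.66, dnaja2l 0.66 and lmo1 0.60, of 12516 ranked) and thraa (baiap3, bcl11aa and dcc, each 0.63). Libraries share depth and composition, so these values carry no test. With the group mean kept, 2 of the 3 closest genes stayed the same for ttr and for thraa. For tg, dio1, dio2, dio3b and thrb 0 of the 3 did.

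PFHxS was compared with DMSO at each age, the question the exposure series was set up for. No member passed in any of the 6 comparisons, and neither did any of the 20723 genes (0% called, edgeR, adjusted p under 0.05). DESeq2 called 1 gene at 14 µM and 10 at 7.87 µM at 4 dpf and 1 at 25.1 µM at 5 dpf, none a member. At an unadjusted p under 0.05, the share of all genes was 2.61%, 5.05% and 12% at 4 dpf for 25.1, 14 and 7.87 µM, and 0.671%, 0.729% and 4.69% at 5 dpf. At 4 dpf the last 16 columns of the table held 4 of the 6 DMSO libraries and 0 of 7.87 µM. Their part in the 12% was not tested. Among the 48 member values, 2 had an unadjusted p under 0.05, both of ttr at 4 dpf.

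At 4 dpf ttr lay between 0.866 and 4.41 CPM at 7.87 µM (median 1.64), between 0.0648 and 6.91 CPM at 14 µM (median 1.02) and between 1.51 and 4.86 CPM at 25.1 µM (median 2.25), against 0.133 to 2.59 CPM in DMSO. All of these ranges overlapped that of DMSO, 2 libraries at each concentration were above every DMSO library, and at 14 µM another 2 were below all of them. The log2 differences were 1.25 ± 0.65 at 7.87 µM (edgeR adjusted p = 0.44), 1.34 ± 0.65 at 14 µM (adjusted p = 0.971) and 1.72 ± 0.65 at 25.1 µM (adjusted p = 1). Without DMSO E, the control library highest in liver markers, they were 1.87, 1.96 and 2.34. Without 14 µM D, the library highest in ttr, the difference at 14 µM was 0.55, and by limma on the quantile values of all libraries it was 0.42 (pseudocount 1).

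The liver markers stood higher in the same comparisons, none of them past the adjusted threshold. All 18 had positive log2 differences at each concentration at 4 dpf, with medians of 0.68, 1.35 and 1.09 at 7.87, 14 and 25.1 µM, against 0.05, 0 and -0.01 over all genes. Of all 20723 genes, 11588, 10498 and 10067 had positive differences in the same order. The 18 were read in the same libraries, so they are not 18 separate observations. The summed liver level was 275 to 1710 CPM at 7.87 µM, 99.4 to 3100 CPM at 14 µM, 399 to 1790 CPM at 25.1 µM and 172 to 1350 CPM in DMSO, so that 14 µM also reached below DMSO. The 14 µM libraries with ttr below every DMSO library, H and I, had the lowest liver means of their group (log2 CPM of -0.20 and 1.31).

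Of 12 exocrine pancreas markers, 11, 10 and 12 had positive differences at 7.87, 14 and 25.1 µM at 4 dpf, with medians of 0.64, 0.55 and 1.61. Of 7 intestine markers, 2, 4 and 7 did, with medians of -0.26, 0.01 and 0.83. The part of these markers in the ttr values was not tested beyond the ratio that follows.

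Relative to the mean liver marker within a library, ttr differed from DMSO by 0.61 ± 0.42 at 25.1 µM, 0.03 ± 0.47 at 14 µM and 0.72 ± 0.53 at 7.87 µM at 4 dpf (log2, SE, exact permutation p = 0.18, 0.944 and 0.212). With fabp10a alone as the liver reference the 3 differences were -0.06, -0.78 and -0.57. None passed, and the direction therefore depended on which liver genes were used. At 5 dpf the ratio to the mean liver marker was higher than in DMSO by 0.23 ± 0.21 at 25.1 µM, 0.42 ± 0.18 at 14 µM and 0.64 ± 0.23 at 7.87 µM (exact permutation p = 0.29, 0.0368 and 0.0108). The adjusted values over the 21 tests were 0.554, 0.13 and 0.114, none past the threshold.

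At 5 dpf, ttr differed from DMSO by between -0.08 and 0.28 on the log2 scale over the 3 concentrations (edgeR, smallest adjusted p = 0.999). The effect of 25.1 µM at 5 dpf minus that at 4 dpf was -1.80 ± 0.85 (edgeR adjusted p = 1), a comparison in which 1.84% of all genes had an unadjusted p under 0.05 and 0 passed. The slope of ttr on concentration at 4 dpf was 0.0595 ± 0.0276 log2 units per µM over 24 libraries (edgeR adjusted p = 1). Of all genes, 1.11% had an unadjusted p under 0.05 for the slope at 4 dpf and 2.07% at 5 dpf. Only si:dkey-61n16.5, no member, passed the adjusted threshold, for the 5 dpf slope (0.00483% of genes), and that call was lost in 18 of 24 fits with 1 library left out.

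The synthesis genes did not pass at any concentration. For tg the differences spanned -0.21 to -0.13 in the younger larvae and -0.49 to -0.31 in the older (each SE 0.32, smallest adjusted p = 0.847). Its 5 dpf means were 138 ± 50.8, 157 ± 58.8 and 150 ± 53.5 CPM at 7.87, 14 and 25.1 µM, against 194 ± 76.8 CPM in DMSO (SD, n = 6), with overlapping ranges. For slc5a5 they spanned -0.57 to 1.18 in the younger larvae and 0.00 to 0.52 in the older, with SEs of 0.60 to 0.83, so that differences of that size were not detectable at these counts.

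Among the deiodinases, dio1 spanned 0.21 to 0.46 in the younger larvae and -0.46 to -0.27 in the older on the log2 scale (SE 0.38 and 0.35, smallest adjusted p = 0.827). The range for dio2 was 0.15 to 0.60 at 4 dpf and 0.27 to 0.32 at 5 dpf. Its value of 0.60 ± 0.33 at 7.87 µM and 4 dpf (edgeR adjusted p = 0.465) rested on libraries between 0.744 and 2.23 CPM, of which 3 were above every DMSO library.

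For dio3b the differences spanned 0.12 to 0.33 in the younger larvae and -0.56 to 0.05 in the older. The lowest, -0.56 ± 0.32 at 14 µM (edgeR adjusted p = 1), came from libraries between 3.27 and 11.9 CPM, 3 of them below every DMSO library, against 9.08 to 13.1 CPM in DMSO. Of those 3, 2 were the libraries A and D low in pancreas markers, at 3.27 and 5.71 CPM, and the other was E, at 5.86 CPM. At 7.87 µM, the libraries low in pancreas markers held 4.12 and 5.11 CPM of dio3b and the other 4 held 9.03 to 21.5 CPM. Without the libraries low in pancreas markers, dio3b differed from DMSO at 5 dpf by -0.28 at 14 µM and 0.43 at 7.87 µM, dio1 by -0.06 and -0.08, and ttr by 0.68 and 0.51. Without 7.87 µM F and I, whose most abundant genes held few counts, the 7.87 µM differences were -0.49 for dio3b, -0.50 for dio1 and -0.33 for ttr, none past the threshold.

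The dio2 to dio3b ratio at 5 dpf was higher than in DMSO by 0.67 ± 0.28 at 25.1 µM, 1.04 ± 0.44 at 14 µM and 0.52 ± 0.53 at 7.87 µM (log2, SE). The exact permutation p was 0.026, 0.039 and 0.353, with adjusted values of 0.13, 0.13 and 0.617, so that none passed over the 21 tests. The libraries low in pancreas markers had the highest ratios of their groups, -1.24 and -1.96 (14 µM A and D) and -1.59 and -2.20 (7.87 µM C and D). Without them the difference was 0.58 at 14 µM and -0.07 at 7.87 µM (exact permutation p = 0.176 and 0.881). Without 7.87 µM F and I it was 1.02 at 7.87 µM (exact permutation p = 0.0905). At 25.1 µM all 6 libraries lay between -3.14 and -2.65, inside the DMSO range of -4.60 to -2.69 but for 1 library. At 4 dpf the ratio differed from DMSO by -0.03, -0.14 and 0.25 at 25.1, 14 and 7.87 µM.

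The receptor genes thraa and thrb did not pass at any concentration, nor did thrab, a receptor gene not among the members. Differences of thraa spanned -0.23 to -0.16 in the younger larvae and -0.10 to 0.31 in the older with an SE of 0.22, and those of thrb -0.35 to 0.09 and -0.23 to -0.04 (smallest adjusted p = 0.721 and 0.933). At 7.87 µM and 5 dpf, 5 of 6 libraries of thraa were above every DMSO library (4.42 to 6.16 against 3.81 to 4.77 CPM), with 0.31 ± 0.22 (edgeR adjusted p = 0.986). At 4 dpf thrab differed by -0.51 ± 0.21 at 7.87 µM (edgeR adjusted p = 0.315) and by -0.33 ± 0.21 at both 14 and 25.1 µM. Its difference at 25.1 µM and 5 dpf was 0.23 ± 0.21.

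**Figure D5:**
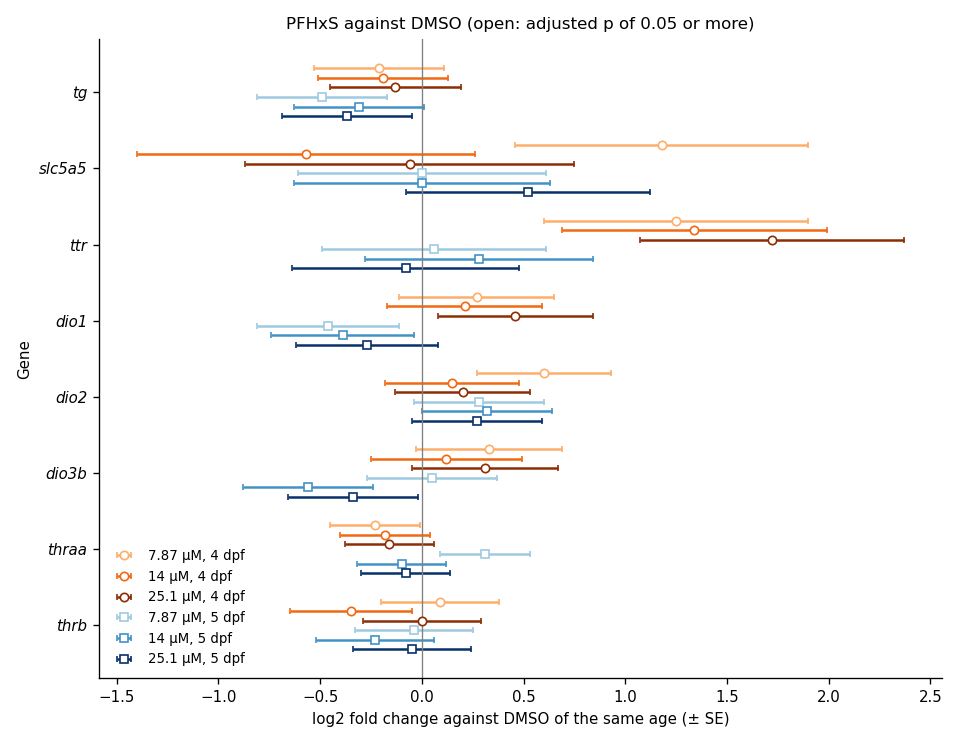
Log2 fold change of each gene against DMSO of the same age (horizontal axis, ± SE) at 3 PFHxS concentrations, circles at 4 dpf and squares at 5 dpf. Every point is open, since no adjusted p was under 0.05. The values of ttr at 4 dpf (1.25, 1.34 and 1.72) stand apart to the right of its 5 dpf values (0.06, 0.28 and -0.08).

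Other genes of the pathway were read from a list of 56, of which 47 were in the table and 44 were tested. From 4 to 5 dpf in DMSO, 12 rose, 10 fell and 22 did not pass (edgeR), with a median log2 fold change of 0.14 against 0.20 over all genes. Over all genes, 21.7% rose and 20.2% fell, and 12 and 10 of 44 lie near those shares. Among the 12, slc26a4, tshr, trhrb, serpina7 and sult1st2 had lower 4 dpf DMSO means than slc5a5 (0.142 CPM). Like slc5a5, they may have passed the low-count filter through 5 dpf libraries. Their rises, and the count of 12, may therefore not be independent of that filter. Of 8 synthesis genes, 1 rose and 3 fell. The iodide exporter gene slc26a4 rose from 0.0872 to 0.35 CPM (1.94 ± 0.69, edgeR adjusted p = 0.0222), a low level at both ages. The gene duox, which encodes an oxidase that supplies peroxide for iodination, fell (-2.21 ± 0.35, adjusted p = 3.71e-06).

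Of 7 genes of the pituitary and hypothalamic axis, receptors included, 2 rose and 1 fell. The thyrotropin receptor gene tshr rose by 2.06 ± 0.66 (edgeR adjusted p = 0.0111) and trhrb, which encodes a receptor of thyrotropin-releasing hormone, by 2.58 ± 0.84 (adjusted p = 0.0125), both from levels below 0.1 CPM at 4 dpf. The releasing hormone gene trh fell from 36.5 to 9.86 CPM (-1.89 ± 0.30, adjusted p = 2.6e-06). In transport, 1 of 8 rose and 1 fell. The one that rose, serpina7, went from 0.0324 to 0.196 CPM (2.35 ± 0.88, edgeR adjusted p = 0.0284), a low level at both ages. Of 14 genes of reception and its cofactors, 2 rose and 5 fell. These 14 include a further receptor gene, thrab, at 11.4 CPM at 4 dpf and 11 CPM at 5 dpf.

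Of 6 genes on the hormone-responsive list, 4 were tested, and all 4 rose in DMSO, where 21.7% of all genes did. The list was chosen with earlier results of these data known, so this count is no test of hormone action. At 7.87 µM 3 of the 4 rose, and pcna did not pass (0.17 ± 0.30, edgeR adjusted p = 0.653). The transcription factor gene klf9 rose from 2.54 to 26.1 CPM (3.37 ± 0.53, edgeR adjusted p = 2.84e-06) and the myelin gene plp1b from 6.13 to 17.4 CPM (1.51 ± 0.18, adjusted p = 5.4e-08). Of 3 clearance genes 2 rose: sult1st2, a sulfotransferase gene, from only 0.0875 CPM at 4 dpf (4.55 ± 0.95, adjusted p = 0.000168), and ugt1a1, a glucuronosyltransferase gene (4.01 ± 0.60, adjusted p = 1.25e-06). The liver markers rose in the same comparison, and the part of liver RNA in these values was not tested.

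None of the 44 passed against DMSO or for a slope. The genes with the smallest p at 4 dpf were pcna at 7.87 µM (0.83 ± 0.30, edgeR adjusted p = 0.251), slco1c1 at 14 µM (-0.43 ± 0.20, adjusted p = 0.971) and ugt1a1 at 25.1 µM (0.89 ± 0.56, adjusted p = 1). At 5 dpf they were rxrgb at 7.87 µM (-0.59 ± 0.21, edgeR adjusted p = 0.986), and nkx2.1 at 14 µM (-0.61 ± 0.28) and 25.1 µM (-0.51 ± 0.28), both with an adjusted p of 1. For the slopes they were crhb at 4 dpf (-0.0264 ± 0.0173 log2 units per µM) and klf9 at 5 dpf (0.0206 ± 0.0098), again with adjusted p = 1 in edgeR.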

How the data were processed

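Per the labels' protocols, polyA RNA of pooled heads was sequenced from a single end. The deposited table of expected counts holds the authors' estimated reads per gene, not normalized. A second deposited table holds log2 values that the authors had quantile-normalized, used for an alternative. STAR 2.5.3a, Partek 8.0.19.0428 and the build GRCz11 are named in the submitters' processing notes; strand and annotation release are not given in the sources used here. Of the expected counts, 77.5% were whole within 1e-09, and they were rounded. No 2 libraries of a group agreed within sampling noise (smallest chi-square per gene 14.1 over 120 pairs).

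With edgeR 4.0.16 in R 4.3.3, genes were kept by filterByExpr (20723), scaled by TMM and fitted over all 48 libraries as 8 group means, with glmQLFit and glmQLFTest and Benjamini-Hochberg adjustment at 0.05. The SE is the size of the log2 fold change divided by the square root of F. Slopes used the 24 libraries of an age. The biological coefficient of variation was 0.361. Within-library ratios used log2 CPM with a prior count of 2 and exact permutation tests. Fits were checked on simulated data. Members and lists were chosen with earlier results of these data known. The 10 members were named whatever their values; of the wider list, up to 10 genes past the threshold by size of change between ages, and elsewhere those passing or else the one with the smallest p; likeness took the top 3 genes by correlation. Alternatives were DESeq2 1.42.0, limma 3.58.1 on the quantile values, other scaling, filters and sample sets, the sample letter as a block, a term for the last 16 columns and leaving out each library. Total counts alone and leaving out the libraries named as low were chosen after seeing the data.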

Additional observations from a re-analysis of the deposited data

Results flagged for a closer look

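In 64 groups of 6 libraries, 8 genes in 8 groups, 4 held a library far from the other 5 by Dixon's test at the 95% level, where chance alone flags about 1 in 20 groups. For slc5a5, 4 dpf DMSO G stood at 0.532 CPM with the next at 0.19 CPM, and 5 dpf 25.1 µM C at 1.23 CPM with the next at 0.611 CPM. For thraa, 4 dpf 7.87 µM H stood at 5.67 CPM with the next at 3.69 CPM; it is also 1 of the 3 libraries where under 15% of counts fell on the 10 most abundant genes. For thrb, 4 dpf 14 µM B stood at 8.78 CPM with the next at 4.21 CPM.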

How the results depend on the processing

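The rises of ttr, dio3b and dio1 in DMSO kept direction and call under every alternative run. Of 39 single-gene effects given one by one (every age effect, and other effects with an unadjusted p under 0.1, a limit chosen after seeing the data), 951 values were recomputed: 859 kept direction and call, 51 lost the call, 8 gained it and 33 changed sign, 1 of these with a call. The other 65 effects, given as ranges, were recomputed 1742 times; 111 of those values, from 28 effects, changed sign, none with a call. The cause of these changes was not tested.

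Among the effects given one by one, the changes of sign were of dio2 and thraa between ages. With the sample letter as a replicate block, dio2 in DMSO was 0.06 and thraa 0.03; thraa was 0.03 with a term for the last 16 columns. With total counts only, dio2 was 0.68 in DMSO and 0.55 at 7.87 µM, and thraa 0.65 in DMSO. With the compared groups only, dio2 was 0.01 in DMSO and -0.01 at 25.1 µM. With limma on quantile values (pseudocounts 1 and 0.1), dio2 was -0.29 and -0.29 at 14 µM and -0.42 and -0.43 at 25.1 µM, and thraa -0.32 and -0.32 at 14 µM and -0.24 and -0.24 at 25.1 µM. Leaving out 1 library gave dio2 from -0.13 to 0.13 in DMSO, -0.06 to 0.38 at 14 µM and -0.06 to 0.30 at 25.1 µM, and thraa from -0.10 to 0.08, -0.00 to 0.13 and -0.10 to 0.19.

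Members called between ages at 7.87 µM numbered 3 with limma at either pseudocount, and 3 to 5 with 1 library left out (3 without 4 dpf 7.87 µM I). With total counts only, 13869 genes passed between ages at 14 µM. Against DMSO no member passed under any alternative. Genes passing numbered 1 at 25.1 µM, 4 dpf and 2 at 25.1 µM, 5 dpf with the compared groups only. With DESeq2 they numbered 1 at 14 µM, 4 dpf, 10 at 7.87 µM, 4 dpf and 1 at 25.1 µM, 5 dpf. With limma they numbered 1 at 14 µM, 4 dpf (pseudocount 1) and 1 at 7.87 µM, 4 dpf (pseudocount 0.1). Leaving out 1 library gave 0 to 1 at 14 µM, 4 dpf (1 without 14 µM I) and 0 to 121 at 7.87 µM, 4 dpf (121 without DMSO F). Of the 4 dpf DMSO libraries only B and F lie outside the last 16 columns. Those columns hold the other 4, and 0 of 7.87 µM at 4 dpf. The part of the columns in the 121 was not tested. The gene passing for the 5 dpf slope was lost (0) with ranked concentrations, with the replicate block and with total counts only, and 0 to 1 passed with 1 library left out (0 in 18 of 24 fits). Nothing in the labels says that a letter marks a shared clutch or day. Over 113 same-letter pairs the median correlation of deviations was 0.027, with 51 over 0.1 and a lowest of -0.528, against -0.007 and 310 over 0.1 for 895 other-letter pairs. Same-letter pairs ranged from -0.528 to 0.777, so these values cannot decide whether a letter pairs some of the libraries. The pairs mixed the 2 ages, and those within an age were not separated. At 5 dpf, G held the lowest tg and the lowest cartilage marker mean at 7.87, 14 and 25.1 µM, but not in DMSO. At 4 dpf, B held the lowest tg at 7.87 and 14 µM and in DMSO, but not at 25.1 µM. Libraries of an age that share a letter may therefore not be independent, which was not tested. The reported fits did not pair by letter. The letter entered only as a block in an alternative, with the same term for a letter at both ages. The replicate block changed no other count of calls by over 1.5 times.

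For ttr to liver markers, fabp10a alone gave -0.06, -0.78 and -0.57 at 25.1, 14 and 7.87 µM at 4 dpf, and -0.35 at 25.1 µM at 5 dpf; at 14 µM, 4 dpf a prior count of 0.5 gave -0.01, quantile values -0.00, and 1 library left out -0.27 to 0.31. With 1 library left out at 4 dpf, dio2 to dio3b ran from -0.33 to 0.23 at 25.1 µM, -0.41 to 0.25 at 14 µM and -0.00 to 0.53 at 7.87 µM, and thraa to thrb from -0.42 to 0.20 at 25.1 µM. Without the libraries low in pancreas markers, dio2 to dio3b was -0.07 at 7.87 µM, 5 dpf. At 5 dpf dio2 to dio3b ran from 0.46 to 0.84 at 25.1 µM (past the threshold without DMSO I), and ttr to liver markers from 0.32 to 0.52 at 14 µM and 0.46 to 0.75 at 7.87 µM (both past it without DMSO C).

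Of the differences from DMSO, those of slc5a5 had the largest SEs at each age. Over the 8 genes the SEs ran from 0.22 to 0.83.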
